A study of Homo sapiens with 18 samples.

Results

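The cytosolic heat shock chaperones examined here are 10 genes, *HSF1*, *HSPA1A*, *HSPA1B*, *HSPA8*, *HSPH1*, *DNAJB1*, *BAG3*, *HSP90AA1*, *HSP90AB1* and *HSPB1*. They were chosen by name, as the rows whose gene symbol equals one of these, and are 10 of the 26485 genes listed. All 10 were present in both deposited tables and passed the filter on low values in each, a mean of 10 normalized counts over its libraries, so all 10 were tested. RNA came from PANC-1 cells, an established line of human pancreatic ductal carcinoma, 72 h after treatment, and every group had 3 libraries. In the first table the cells had received a control siRNA or one of the siRNAs called PKR siRNA 1 and PKR siRNA 2. These small interfering RNAs lead to the cleavage of mRNAs that pair with them, and PKR is the double-stranded RNA-activated kinase encoded by *EIF2AK2*. In the second table they had received the solvent DMSO, or C16, an inhibitor of the kinase activity of PKR, at 400 nM or 800 nM. All 6 groups are the same unmodified line, and the sources used here do not state whether the 3 libraries of a group were separate cultures, so the p-values measure the spread between libraries. The sample labels assign each table a run of its own, without saying what a run was, and each table has its own normalization. An effect of the run therefore cannot be told apart from that of the agent, and levels were compared only within a table.

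Heat shock chaperones bind unfolded stretches of other proteins and help them fold, or hand them to degradation. Their genes are switched on by the transcription factor HSF1, which cytosolic chaperones hold inactive in unstressed cells and which binds inverted repeats of the bases GAA, the heat shock element. HSP70 proteins work in cycles of ATP hydrolysis that J proteins start and nucleotide exchange factors end. HSP90 proteins act later on partly folded clients, many of them kinases and receptors, and small heat shock proteins hold unfolded proteins without ATP. PKR phosphorylates the translation factor eIF2 alpha and is therefore another arm of the response of a cell to stress.

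The promoter windows of the members are shown because *HSF1* transcript itself changed in the siRNA table while its best known target genes moved in different directions. RefSeq windows on GRCh38.p14, from 250 bases before a transcript start to 50 bases after it, were matched by symbol for 9 of the 10 members, *HSF1* having no entry, and these had 14 windows. Each was searched for GAANNTTC and TTCNNGAA, which read the same on both strands and can overlap by 3 bases. At least 1 of the patterns lay in a window of 7 members, against 13.5% of all 35116 windows and 16.2% of all symbols. Both patterns overlapping as 3 alternating units, GAANNTTCNNGAA or on the other strand TTCNNGAANNTTC, occurred in a window of 3 members, *HSPA8*, *HSP90AA1* and *HSP90AB1*, against 0.49% of all windows and 0.608% of all symbols. *HSPH1* and *BAG3* held neither pattern in their windows. Each stretch printed below runs 5′ to 3′ on the strand of its gene, upstream of the transcript start, with every complete match in capitals.
HSPA1A: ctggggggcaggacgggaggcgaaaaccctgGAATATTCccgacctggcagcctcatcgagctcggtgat
HSPA1B: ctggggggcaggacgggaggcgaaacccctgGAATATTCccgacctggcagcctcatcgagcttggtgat
HSPA8: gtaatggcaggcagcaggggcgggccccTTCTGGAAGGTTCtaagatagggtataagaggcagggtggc
HSP90AA1: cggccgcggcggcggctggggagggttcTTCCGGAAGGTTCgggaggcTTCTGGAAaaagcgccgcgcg
HSP90AB1: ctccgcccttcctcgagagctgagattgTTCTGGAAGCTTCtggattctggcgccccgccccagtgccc
DNAJB1: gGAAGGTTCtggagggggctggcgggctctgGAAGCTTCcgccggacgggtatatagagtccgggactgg
HSPB1: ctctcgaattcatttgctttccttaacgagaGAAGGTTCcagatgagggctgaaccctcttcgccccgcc

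The stretches of *HSPA1A* (chr6:31815406-31815475, plus strand) and *HSPA1B* (chr6:31827602-31827671, plus strand) differed at 2 of 70 bases, and the match itself was the same in both. The *HSPA8* stretch (chr11:123062151-123062219, minus strand) began 83 bases before the transcript start, and a further overlapping pair lay farther upstream in the same window, at -230 to -218. The *HSP90AA1* stretch (chr14:102087092-102087160, minus strand) held 3 matches, 2 of which overlapped. It came from window 1 of 2, and the other window held no match. The *HSP90AB1* stretch (chr6:44247803-44247871, plus strand) belonged to the third of 3 transcript starts, and the windows of the other two held no match. A further overlapping pair lay farther upstream in the window of the stretch, at -165 to -153. The *DNAJB1* stretch (chr19:14518406-14518475, minus strand) held 2 separate matches, and the *HSPB1* stretch (chr7:76302460-76302529, plus strand) held 1. For *DNAJB1* the stretch came from window 2 of 3, and window 1 held a further match at 2 to 9, after its transcript start. Window 3 held none. A match of letters is a description of the sequence and does not show that HSF1 was bound there in these cells.

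**Figure D1:**
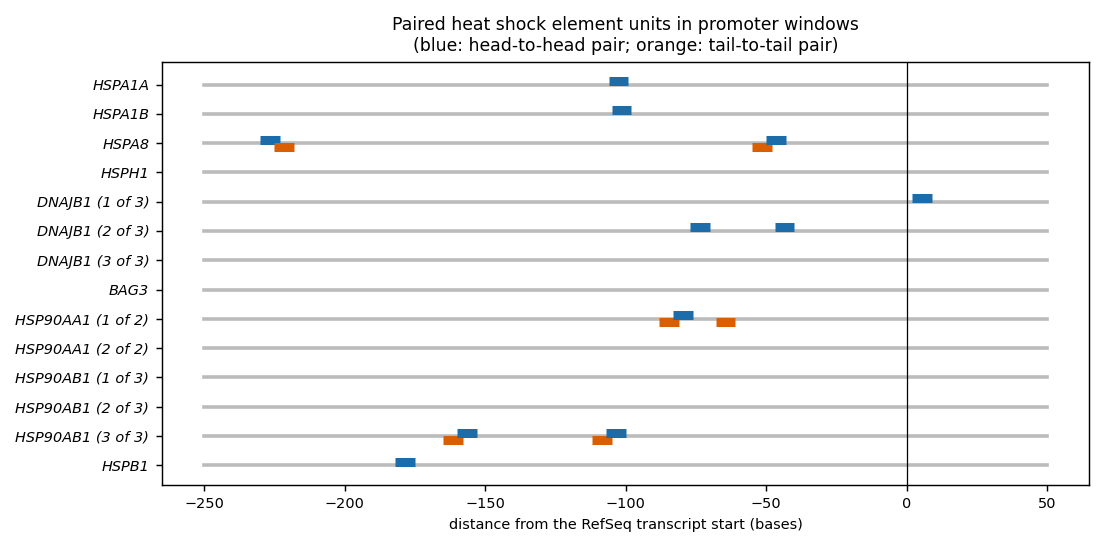
Matches to the paired heat shock element units in the 14 RefSeq promoter windows of 9 members. The horizontal axis is the distance from the transcript start in bases, each grey line is 1 window, blue bars mark GAANNTTC and orange bars TTCNNGAA. Overlapping blue and orange bars are the 3-unit matches of *HSPA8*, *HSP90AA1* and *HSP90AB1*, and the windows of *HSPH1* and *BAG3* are empty.

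Reads counted on genes ranged from 1512940 to 1873906 per library in the siRNA table and from 894145 to 1474308 in the C16 table. *EIF2AK2*, the targeted gene, stood at 93.5 to 103 normalized counts in the control siRNA libraries, at 9.65 to 13.6 with PKR siRNA 1 and at 7.96 to 9.40 with PKR siRNA 2. In the C16 table it stood at 39.2 to 54.1 in all 9 libraries. The keratins KRT8, KRT18 and KRT19 and vimentin were high in every library, with at least 519 normalized counts each, while PTPRC, CD3E, CPA1, AMY2A, INS and GCG, markers of leukocytes and of other pancreatic cells, were at 0 in all 18 and no other marker of leukocyte, endothelial or acinar cells exceeded 4.86. EPCAM, CDH1 and KRT7 were low, at no more than 120 normalized counts in any library. The sum of the 6 epithelial markers, made up mostly of KRT8, KRT18 and KRT19, moved with the groups. It stood at 5358 to 5451 normalized counts in control siRNA libraries, 3052 to 3280 with PKR siRNA 1 and 9586 to 10233 with PKR siRNA 2. In the C16 table it stood at 7171 to 7572 in DMSO, and at 6033 to 6544 and 5172 to 5685 at the lower and the higher dose. The part of these markers in the results for the chaperones was not tested. In bulk RNA, fewer cells of a kind and less RNA per cell cannot be told apart.

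The 10 genes together took 0.594% to 0.716% of the normalized counts of a library, and *HSPA8*, *HSP90AB1* and *HSP90AA1* held 80.4% to 87.5% of that sum. Divided by exon length, the order in the control siRNA libraries was *HSPA8* at 1635 ± 8.37 normalized counts per kilobase (SD, n = 3), *HSP90AB1* at 1599 ± 39.8, *HSP90AA1* at 487 ± 13.0, *HSPB1* at 201 ± 12.4 and *BAG3* at 116 ± 6.20. *DNAJB1* at 92.7 ± 6.69, *HSF1* at 87.5 ± 5.37 and *HSPH1* at 84.2 ± 5.25 followed, and neighbours among these 3 overlapped, as did *HSPA8* and *HSP90AB1*. The length counts every annotated exon base of a gene, whichever transcripts were present, and the order depends on it. *HSPH1*, with 5727 such bases, came last although its mean of 482 normalized counts exceeded the 299 of *BAG3*. The DMSO libraries gave the same order, with *HSPA8* at 981 ± 16.4 and *HSPH1* at 59.3 ± 1.23, although there *HSP90AA1* (338 ± 13.1) overlapped *HSPB1* (320 ± 33.0). *HSPA1A* and *HSPA1B* were left out of this order. They are near-identical genes of a single exon, 73.8% of the 75-base windows of the *HSPA1A* transcript also occur in that of *HSPA1B*, and both are annotated again on 4 alternate contigs, so reads could have been split or dropped by the authors' counting, whose setting for such reads is not given in the sources used here. *HSPA8* and the HSP90 genes have processed pseudogenes elsewhere in the genome, with which reads could be exchanged in the same way.

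PKR siRNA 1 changed 5 of the 10 genes and PKR siRNA 2 changed 8, a changed gene being one with an adjusted p-value under 0.05 by limma with Benjamini-Hochberg adjustment over all 10593 genes tested. With PKR siRNA 1, 1 of 10 was higher, against 21.1% of all genes tested, and 4 were lower, against 23.9%. With PKR siRNA 2, 5 of 10 were higher, against 22.1% of all genes, and 3 were lower, against 25.2%. A change over 1.5-fold as well was seen for 1 member with PKR siRNA 1, where 21.1% of all genes met both limits in either direction, and for 3 with PKR siRNA 2, where 23.5% did. The median log2 fold change of the members was -0.09 and 0.19, beside -0.01 for all genes in both comparisons. Between the siRNAs, 5 members were higher with PKR siRNA 2 than with PKR siRNA 1, against 27.7% of all genes, and 1 was lower, against 29.3%, and 4 differed by over 1.5-fold, against 31.7%. The comparisons with control siRNA share the control libraries. For single genes an exact two-sided permutation test of 3 against 3 libraries cannot go below 0.1, the value it took wherever groups did not overlap.

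**Figure D2:**
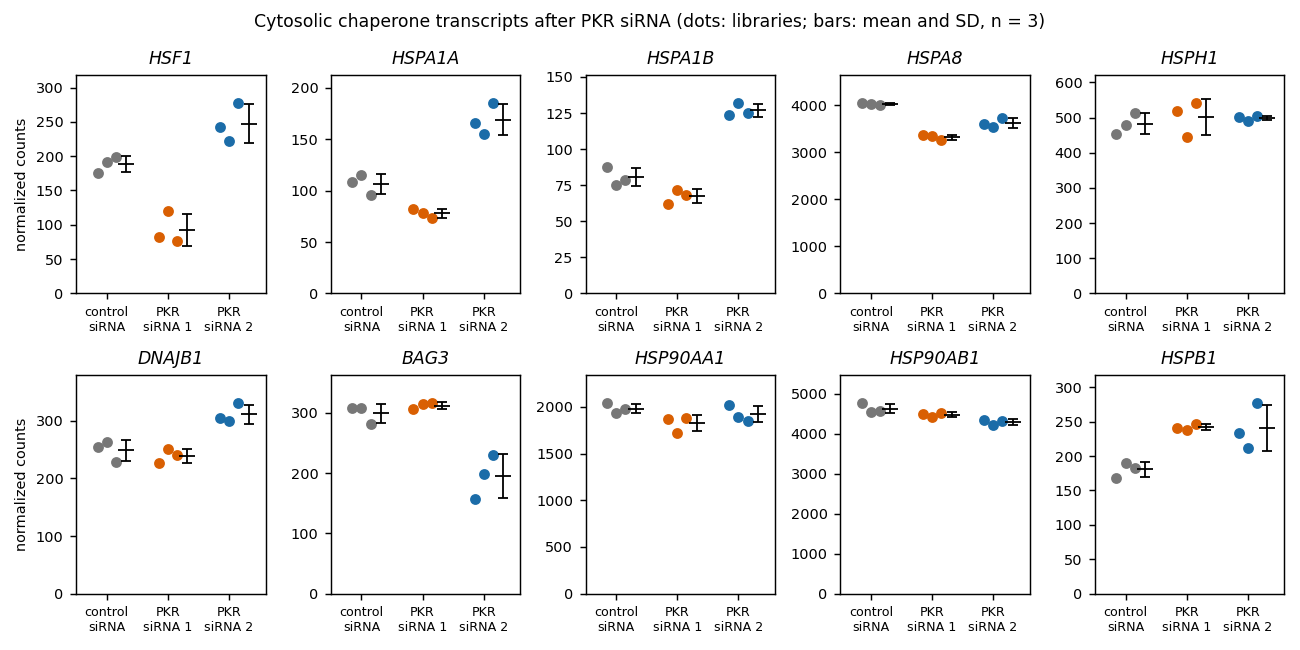
Normalized counts of the 10 genes in the 9 libraries of the siRNA table, with each panel on its own vertical axis from 0. Dots are libraries (grey control siRNA, orange PKR siRNA 1, blue PKR siRNA 2) and bars are the mean and SD of 3 libraries. *HSF1*, *HSPA1A* and *HSPA1B* lie below the controls with PKR siRNA 1 and above them with PKR siRNA 2, while *HSPB1* lies above them with both.

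*HSF1*, the transcription factor of the heat shock response, stood at 176, 191 and 198 normalized counts in the control siRNA libraries, at 82.2, 120 and 76.2 with PKR siRNA 1, and at 243, 222 and 277 with PKR siRNA 2. The 3 groups did not overlap, with PKR siRNA 1 lowest and PKR siRNA 2 highest. The log2 fold change against control was -1.04 ± 0.11 with PKR siRNA 1 (adjusted p = 2.33e-13 by limma) and 0.39 ± 0.11 with PKR siRNA 2 (adjusted p = 0.002). Wherever ± follows a log2 fold change here, it gives the SE. The siRNAs themselves differed by 1.43 on the log2 scale, a 2.69-fold difference. The gene lies at chr8:144291588-144314722 on the plus strand of hg38, and 6.51% of its exon bases overlap the gene DGAT1 on the opposite strand; whether the authors' counting used strand is not given in the sources used here.

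*HSPA1A* and *HSPA1B*, the classical stress-inducible HSP70 genes, had the largest rise among the 10 with PKR siRNA 2. *HSPA1A* (chr6:31815514-31817942) stood at 109, 115 and 95.7 normalized counts in control libraries, at 82.2, 78.0 and 73.3 with PKR siRNA 1 and at 166, 155 and 185 with PKR siRNA 2. Like *HSF1*, it was lowest with PKR siRNA 1 and highest with PKR siRNA 2, with no overlap between groups. Its log2 fold change against control was -0.44 ± 0.11 with PKR siRNA 1 (adjusted p = 0.000867 by limma) and 0.66 ± 0.11 with PKR siRNA 2 (adjusted p = 1.13e-06). *HSPA1B* (chr6:31827735-31830254) stood at 87.3, 75.2 and 78.7 in control libraries, at 62.2, 71.7 and 68.5 with PKR siRNA 1, and at 123, 132 and 125 with PKR siRNA 2. Its groups were ordered in the same way, but the fall with PKR siRNA 1 missed the threshold (log2 fold change -0.25, 95% interval -0.50 to 0.00, adjusted p = 0.0991 by limma), whereas the rise with PKR siRNA 2 passed it (0.65 ± 0.13, adjusted p = 9.85e-06). Since reads of these copies can be exchanged, their sum is the safer measure, and it stood at 174 to 196 in control libraries, 142 to 150 with PKR siRNA 1 and 287 to 310 with PKR siRNA 2. The fall of the sum with PKR siRNA 1 was -0.36 on the log2 scale (adjusted p = 0.000497 by limma).

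*HSPA8*, which encodes the constitutive HSP70 of the cytosol, was lower with both siRNAs. It stood at 4042, 4022 and 4001 normalized counts in control libraries, at 3361, 3337 and 3254 with PKR siRNA 1 and at 3606, 3529 and 3722 with PKR siRNA 2. No treated library reached a control library, although the change was small, with a log2 fold change of -0.28 ± 0.04 (adjusted p = 3.74e-09 by limma) and -0.15 ± 0.04 (adjusted p = 0.000592). It was thus lower where *HSPA1A* and *HSPA1B* were higher, with PKR siRNA 2. The gene occupies chr11:123057492-123062335 on the minus strand. *HSPH1* (chr13:31134974-31162388), an HSP110 protein that exchanges the nucleotide of HSP70, passed the test in neither comparison. It stood at 453 to 513 normalized counts in control libraries, 444 to 541 with PKR siRNA 1 and 491 to 504 with PKR siRNA 2, and its 95% intervals ran from -0.08 to 0.19 and from -0.08 to 0.18 on the log2 scale.

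*DNAJB1* (chr19:14514764-14518559) encodes the stress-inducible J protein that delivers substrates to HSP70. It stood at 254, 263 and 228 normalized counts in control libraries, at 227, 250 and 241 with PKR siRNA 1 and at 304, 299 and 330 with PKR siRNA 2. PKR siRNA 1 libraries overlapped the controls, and all PKR siRNA 2 libraries lay above both other groups, with a log2 fold change of 0.33 ± 0.08 against control (adjusted p = 0.000526 by limma). *BAG3* (chr10:119651370-119677817), a nucleotide exchange factor of HSP70 that links it to small heat shock proteins and to autophagy, went the other way. It stood at 308, 308 and 281 in control libraries, at 305, 315 and 316 with PKR siRNA 1, and at 157, 198 and 230 with PKR siRNA 2. The libraries of PKR siRNA 2 all lay below both other groups and were spread more widely than they were, and the log2 fold change was -0.63 ± 0.09 (adjusted p = 4.32e-09 by limma). Without replicate 1 of PKR siRNA 2 it was -0.48, short of 1.5-fold, and the members over that limit were then 2 against control and 3 against PKR siRNA 1.

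The HSP90 genes were the least changed in the siRNA table apart from *HSPH1*. *HSP90AA1* (chr14:102080738-102139749), the inducible form, stood at 2037, 1932 and 1978 normalized counts in control libraries, at 1865, 1723 and 1879 with PKR siRNA 1 and at 2022, 1895 and 1853 with PKR siRNA 2. It fell by 8.12% with PKR siRNA 1, which passed the test (log2 fold change -0.12 ± 0.05, adjusted p = 0.0232 by limma), but not when any of 3 libraries was left out (control siRNA replicates 1 and 3, and PKR siRNA 1 replicate 2), with adjusted p-values of 0.122, 0.0519 and 0.159. *HSP90AB1* (chr6:44246166-44253888), the constitutive form, stood at 4762, 4554 and 4571 in control libraries, at 4504, 4414 and 4527 with PKR siRNA 1, and at 4352, 4215 and 4315 with PKR siRNA 2. It fell by 7.23% with PKR siRNA 2, which passed the test (adjusted p = 0.0116 by limma) but did not do so without control siRNA replicate 1 (adjusted p = 0.0957).

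*HSPB1* (chr7:76302558-76304297) encodes the small heat shock protein HSP27 and was the only member that was higher with both siRNAs. It stood at 168, 190 and 183 normalized counts in control libraries, at 241, 239 and 247 with PKR siRNA 1, and at 234, 211 and 276 with PKR siRNA 2. All treated libraries exceeded all controls, and the treated groups overlapped each other. The log2 fold change was 0.42 ± 0.09 (adjusted p = 5.07e-05 by limma) and 0.40 ± 0.09 (adjusted p = 9.34e-05). The difference between the siRNAs was -0.02 with a 95% interval of -0.20 to 0.16. The share of all genes that were higher with both siRNAs was not computed, and both comparisons share the control libraries.

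With C16, 5 members changed at each dose, now with adjustment over the 9963 genes tested in that table. At 400 nM, 2 of 10 were higher, against 14.6% of all genes, and 3 lower, against 11.9%. At 800 nM, 1 was higher, against 22.3% of all genes, and 4 lower, against 22.6%. Only *HSPA1A* also passed 1.5-fold at either dose, where 12.5% and 25.7% of all genes did so in either direction. The median log2 fold change of the members was -0.09 and -0.12, beside 0.00 for all genes in both. Between the doses, 1 member was higher at 800 nM than at 400 nM, against 5.09% of all genes, and 2 were lower, against 9.18%, and none differed by over 1.5-fold, against 5.09% of all genes. The comparisons with DMSO share the DMSO libraries.

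**Figure D3:**
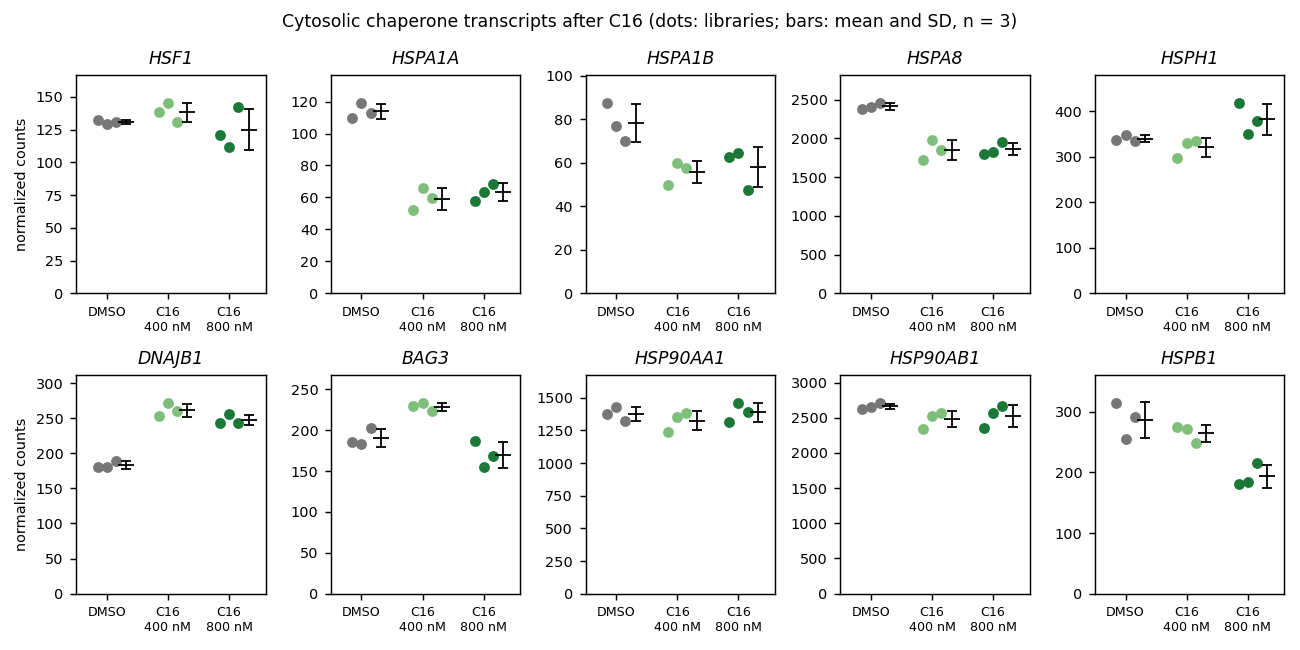
Normalized counts of the 10 genes in the 9 libraries of the C16 table, with each panel on its own vertical axis from 0. Dots are libraries (grey DMSO, light green 400 nM, dark green 800 nM) and bars are the mean and SD of 3 libraries. *HSPA1A*, *HSPA1B* and *HSPA8* lie below DMSO at both doses, *DNAJB1* lies above it at both, and *HSPB1* lies below it at 800 nM.

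*HSF1* did not pass the test at either dose. It stood at 132, 130 and 131 normalized counts in DMSO, at 138, 145 and 131 at 400 nM and at 121, 112 and 142 at 800 nM. Both doses overlapped DMSO, and the 95% intervals of the log2 fold change were -0.14 to 0.30 and -0.29 to 0.15.

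The stress-inducible HSP70 genes were lower with C16. *HSPA1A* stood at 110, 119 and 113 normalized counts in DMSO, at 52.1, 65.7 and 59.6 at 400 nM and at 57.5, 63.4 and 68.7 at 800 nM. Every treated library was below every DMSO library, and the doses overlapped. The log2 fold change was -0.94 ± 0.14 (adjusted p = 2.1e-07 by limma), a level 0.522 times that in DMSO, and -0.84 ± 0.14 (adjusted p = 8.99e-07). *HSPA1B* stood at 87.4, 77.1 and 70.1 in DMSO, at 49.99, 59.96 and 57.4 at 400 nM and at 62.5, 64.6 and 47.7 at 800 nM. Here too no treated library reached DMSO, and the log2 fold change was -0.48 ± 0.15 (adjusted p = 0.0142 by limma) and -0.42 ± 0.15 (adjusted p = 0.0193). The adjusted p-value of *HSPA1B* rose over 0.05 at 400 nM without DMSO replicate 1 (0.0953) or without C16 400 nM replicate 1 (0.0747), and at 800 nM without DMSO replicate 1 (0.11) or C16 800 nM replicate 3 (0.162). The sum of the copies stood at 183 to 197 normalized counts in DMSO, 102 to 126 at 400 nM and 116 to 128 at 800 nM.

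*HSPA8* was lower with C16 as with both siRNAs, each within its own table. It stood at 2375, 2407 and 2455 normalized counts in DMSO, at 1715, 1974 and 1852 at 400 nM and at 1802, 1827 and 1949 at 800 nM. The treated libraries all lay below DMSO, and the log2 fold change was -0.39 ± 0.05 (adjusted p = 9.52e-08 by limma) and -0.38 ± 0.05 (adjusted p = 7.09e-08). Between the doses the difference was 0.01, with a 95% interval of -0.10 to 0.12. *HSPA8* was the only member that was lower, past the threshold, with both siRNAs and with both doses of C16. The share of all genes that were lower in each of these comparisons was not computed, so this is a description only.

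*DNAJB1* rose with C16 while *HSPA1A*, *HSPA1B* and *HSPA8* fell. It stood at 180, 181 and 190 normalized counts in DMSO, at 253, 271 and 260 at 400 nM and at 243, 256 and 243 at 800 nM. All treated libraries exceeded DMSO, with log2 fold changes of 0.51 ± 0.09 (adjusted p = 7.06e-06 by limma) and 0.43 ± 0.09 (adjusted p = 5.33e-05), a level 1.42 and 1.35 times that in DMSO. The doses overlapped.

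*BAG3* and *HSPH1*, both exchange factors of HSP70, differed between the doses. *BAG3* stood at 186, 183 and 203 normalized counts in DMSO, at 230, 233 and 223 at 400 nM and at 187, 155 and 169 at 800 nM. It was higher than DMSO in all libraries at 400 nM and overlapped DMSO at 800 nM. The rise at 400 nM passed the test (log2 fold change 0.26 ± 0.09, adjusted p = 0.031 by limma), but leaving out any of 5 libraries, DMSO replicates 1 and 2 and each replicate of 400 nM, took it past 0.05 (adjusted p = 0.055 to 0.118). At 800 nM it was lower than at 400 nM by 0.43 ± 0.09 on the log2 scale (adjusted p = 0.000992). *HSPH1* stood at 337, 348 and 334 in DMSO, at 297, 330 and 335 at 400 nM and at 418, 350 and 378 at 800 nM. It was higher at 800 nM than at 400 nM by 0.25 ± 0.08 (adjusted p = 0.0269 by limma), a call that was lost without 400 nM replicate 1 or 800 nM replicate 1 or 3 (adjusted p = 0.164, 0.186 and 0.0647). Against DMSO the rise at 800 nM missed the threshold (0.16, adjusted p = 0.0902) and passed it without 800 nM replicate 2 (0.0373).

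The HSP90 genes did not pass the test with C16. *HSP90AA1* stood at 1325 to 1431 normalized counts in DMSO, 1240 to 1385 at 400 nM and 1312 to 1457 at 800 nM. *HSP90AB1* stood at 2624 to 2704, 2346 to 2566 and 2360 to 2665 in the same groups, lying below DMSO in all libraries at 400 nM (log2 fold change -0.10, 95% interval -0.21 to 0.00, adjusted p = 0.142 by limma). *HSPB1* fell at the higher dose. It stood at 314, 255 and 292 in DMSO, at 274, 271 and 249 at 400 nM and at 181, 184 and 216 at 800 nM. The libraries at 400 nM overlapped DMSO and those at 800 nM lay below all others, with a log2 fold change of -0.57 ± 0.09 against DMSO (adjusted p = 6.95e-07 by limma) and -0.45 ± 0.09 against 400 nM (adjusted p = 0.00028). It fell short of 1.5-fold against DMSO, and passed that limit without DMSO replicate 2 or without 800 nM replicate 3, when 2 members did in place of 1.

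**Figure D4:**
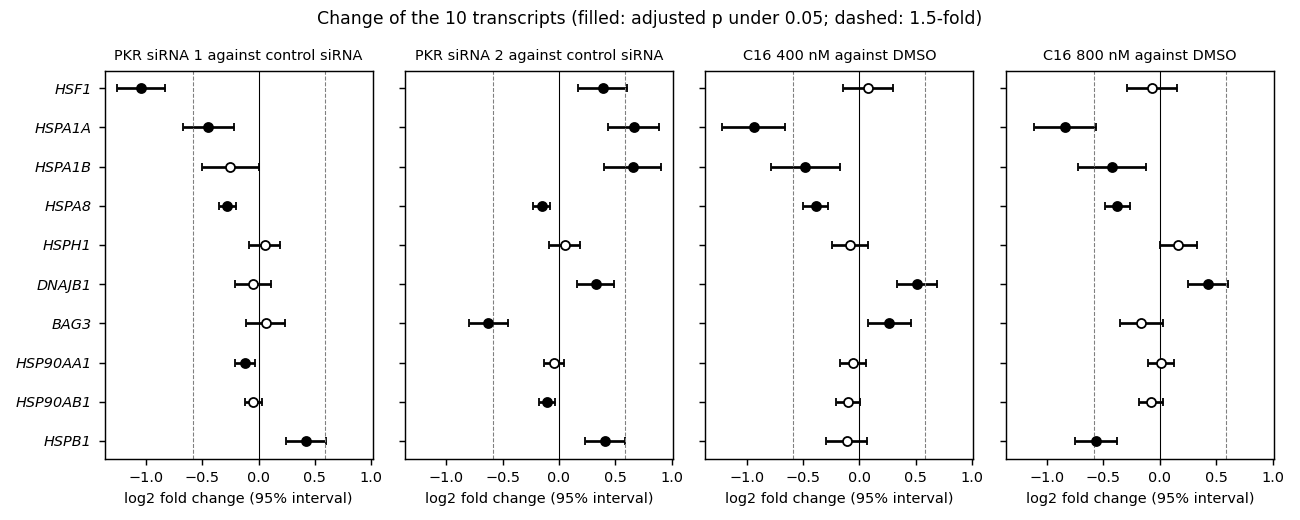
Log2 fold change of each of the 10 genes, on the horizontal axis, with its 95% interval, against control siRNA or DMSO in 4 comparisons. Filled dots have an adjusted p-value under 0.05 and dashed lines mark 1.5-fold. *HSPA8* is filled and below 0 in all 4, *HSF1* is filled only in the siRNA panels, on opposite sides, and *HSP90AA1* and *HSP90AB1* lie between -0.12 and 0.01 in all 4.

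Other chaperone genes were described in 9 lists, with 67 genes tested after siRNA and 65 after C16. With PKR siRNA 1, 17 of the 67 were higher and 16 lower, against 21.1% and 23.9% of all genes, and with PKR siRNA 2, 8 were higher and 26 lower, against 22.1% and 25.2%. At 400 nM C16, 12 of the 65 were higher and 8 lower, against 14.6% and 11.9% of all genes, and at 800 nM 29 were higher and 9 lower, against 22.3% and 22.6%. These shares of all genes are the background of each later list count of genes higher or lower than control siRNA or DMSO. Between the siRNAs, 27.7% of all genes were higher with PKR siRNA 2 and 29.3% lower. The shares also over 1.5-fold in either direction were 21.1% with PKR siRNA 1 and 23.5% with PKR siRNA 2. They were 12.5% at 400 nM, 25.7% at 800 nM, 31.7% between the siRNAs and 5.09% between the doses. The lists are short, so a count is a description of its genes. The TRiC chaperonin, the ring-shaped machine that folds actin and tubulin, had all 8 subunit genes lower with PKR siRNA 2, with a median log2 fold change of -0.38 beside -0.01 for all genes and CCT2 at -0.67 as the only subunit over 1.5-fold. With PKR siRNA 1, 4 of the 8 were lower (median -0.16). With 800 nM C16, 3 of the 8 were higher and none was lower (median 0.12), and at 400 nM none was higher and 1 was lower (median -0.02).

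**Figure D5:**
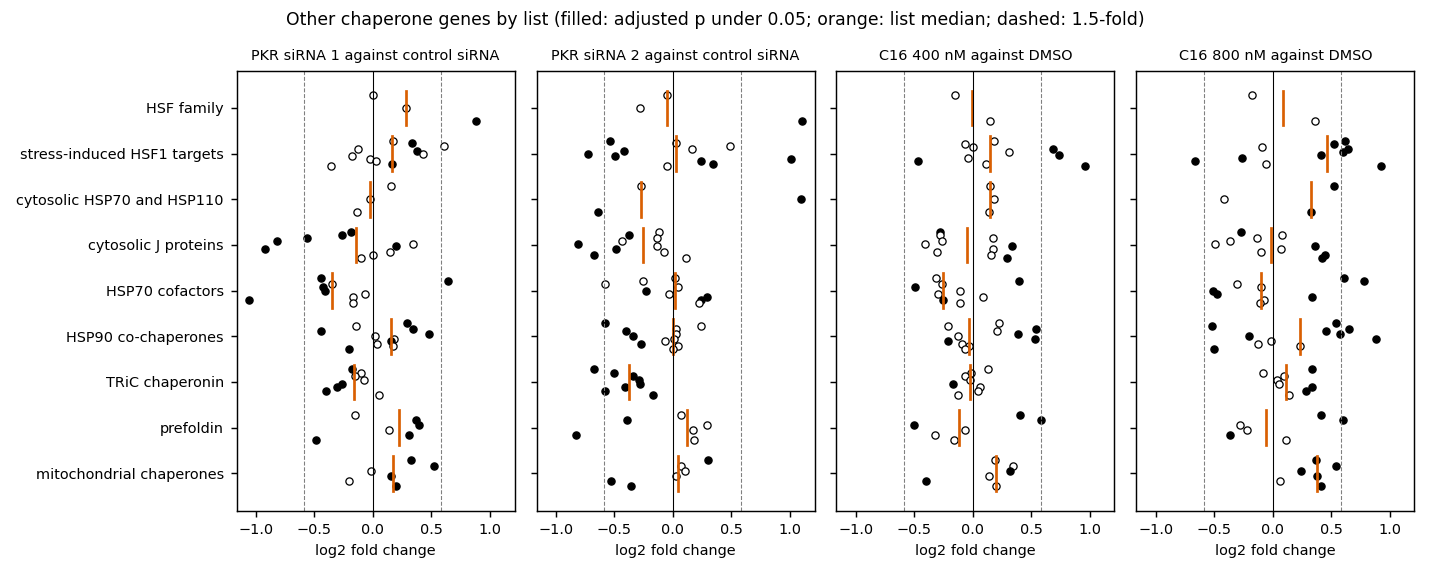
Log2 fold changes of the other chaperone genes by list, 1 dot per gene, in the same 4 comparisons. Filled dots have an adjusted p-value under 0.05, orange bars are list medians and dashed lines mark 1.5-fold. All 8 TRiC dots are filled and below 0 with PKR siRNA 2, and the HSF1 target list spreads to both sides with this siRNA.

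Of 13 further stress-induced HSF1 targets, HSPA6 and CRYAB had means under 10 and were not tested, so 2 of the most inducible genes of the response give no comparison here. HSPB8 was also untested in the C16 table. With PKR siRNA 1, 3 of 11 were higher and none lower, none by over 1.5-fold. With PKR siRNA 2, 3 were higher and 4 lower, with SERPINH1, the collagen chaperone of the endoplasmic reticulum, at a log2 fold change of 1.01 ± 0.09 and the small heat shock protein HSPB8 at -0.72 ± 0.28. At 400 nM C16, 3 of 10 were higher and 1 lower. Those over 1.5-fold were ZFAND2A (0.96 ± 0.29), IER5 (0.74 ± 0.14) and the J protein DNAJA4 (0.69 ± 0.23). At 800 nM, 6 were higher and 2 lower. Among 5 over 1.5-fold, the largest changes were ZFAND2A at 0.93 ± 0.29, the ubiquitin gene UBB at -0.67 ± 0.07 and DNAJA4 at 0.64 ± 0.23. The list median was 0.16 with PKR siRNA 1, 0.03 with PKR siRNA 2, 0.15 at 400 nM and 0.47 at 800 nM. CHORDC1 was higher at 800 nM than at 400 nM by 0.59. Between the siRNAs, 3 were higher with PKR siRNA 2 and 5 lower, with HSPB8 (-1.15), SERPINH1 (1.03) and HSPA4L (-0.79) as those with the largest change.

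Among relatives of HSF1, HSF5 was tested in neither table and HSF4 not in the C16 table, and the other two genes, HSF2 and HSBP1, passed the test against control in neither table. HSF4 had a mean of 7.49 normalized counts in the control siRNA libraries, 15.1 with PKR siRNA 1 and 17.0 with PKR siRNA 2, so it passed the filter only through the groups in which it was high, and its place among the genes counted as higher with each siRNA is no result. Among other HSP70 and HSP110 genes, HSPA2 was higher (1.10 ± 0.27) and HSPA4 lower (-0.64 ± 0.06) with PKR siRNA 2, and HSPA2 differed between the siRNAs by 1.12. Of the 3 genes tested in that list none passed with PKR siRNA 1 or at 400 nM C16, and 2 were higher and none lower at 800 nM. The J proteins had 1 of 10 higher and 5 lower with PKR siRNA 1, where DNAJC5 (-0.93 ± 0.08) and DNAJB4 (-0.82 ± 0.24) passed 1.5-fold, and none higher and 4 lower with PKR siRNA 2, where DNAJB5 (-0.81 ± 0.32) and DNAJC8 (-0.68 ± 0.08) did. DNAJB5 and DNAJC8 were also lower with PKR siRNA 2 than with PKR siRNA 1, by -1.15 and -0.68. At 400 nM C16, 2 J proteins were higher and 1 lower, and at 800 nM 3 were higher and 1 lower, none by over 1.5-fold.

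The HSP70 cofactors had 1 of 9 higher and 4 lower with PKR siRNA 1, with ST13, which stabilizes HSP70 bound to its client, at -1.06 ± 0.08 and BAG2, an inhibitor of client ubiquitination, at 0.64 ± 0.11. Both differed between the siRNAs in the opposite sense, ST13 by 1.30 and BAG2 by -0.89. With PKR siRNA 2, 2 were higher and 1 lower. At 400 nM C16, 1 was higher and 2 lower, and at 800 nM 3 were higher and 2 lower, with BAG2 at 0.78 ± 0.15 and BAG1 at 0.61 ± 0.14. BAG1 was the cofactor that differed between the doses by over 1.5-fold (0.92).

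Of the HSP90 co-chaperones, 4 of 11 were higher and 2 lower with PKR siRNA 1, none higher and 4 lower with PKR siRNA 2, 3 higher and 1 lower at 400 nM C16, and 5 higher and 3 lower at 800 nM. Those over 1.5-fold at 800 nM were the immunophilin PPID (0.89 ± 0.13) and the kinase-specific co-chaperone CDC37 (0.66 ± 0.09). At 400 nM both were higher as well, PPID by 0.53 ± 0.13 and CDC37 by 0.54 ± 0.09, and the difference between the doses did not pass the test for either (adjusted p = 0.0602 and 0.387 by limma). AHSA1, an activator of the HSP90 ATPase, was lower with PKR siRNA 2 than with PKR siRNA 1 by -0.87. Prefoldin, which hands nascent chains to TRiC, had 3 of 6 subunit genes higher and 1 lower with PKR siRNA 1, none higher and 2 lower with PKR siRNA 2, 2 higher and 1 lower at each dose of C16. Its genes over 1.5-fold were PFDN6 with PKR siRNA 2 (-0.83 ± 0.11) and PFDN2 at 800 nM (0.60 ± 0.11), and between the siRNAs PFDN6 (-1.13), PFDN2 (-0.76) and VBP1 (0.67). The mitochondrial chaperones had 4 of 6 higher and none lower with PKR siRNA 1, against 21.1% and 23.9% of all genes, and 1 higher and 2 lower with PKR siRNA 2, against 22.1% and 25.2%. They had 1 of each at 400 nM C16, against 14.6% and 11.9%, and 5 higher and none lower at 800 nM, against 22.3% and 22.6%, where the list median was 0.38.

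The genes whose pattern was most like that of a member were sought by Pearson's r of log2 values over the 9 libraries of a table, which fall into 3 groups, share a normalization and so give high values to any gene with the same order of group means. In the siRNA table the closest were ZNF511 for *HSF1* (r = 0.994), NCOR1 for *HSPA1A* (0.994), IDH2 for *HSPA1B* (0.992), MGAT5B for *HSPA8* (0.990), ZHX3 for *BAG3* (0.988) and SARM1 for *DNAJB1* (0.986). ACAP3 was closest to *HSPB1* (0.974), DDX21 to *HSP90AB1* (0.972), RAP2C to *HSP90AA1* (0.945) and FAM177A1 to *HSPH1* (0.900). In the C16 table the closest were CARS for *DNAJB1* (0.991), PLK2 for *HSPA1A* (0.989), RSRC1 for *HSPA1B* (0.986), TKT for *HSPB1* (0.984), FRAT2 for *HSPA8* (0.977) and PABPC1L for *BAG3* (0.977). RAB28 was closest to *HSP90AB1* (0.941), MTCH2 to *HSPH1* (0.926), C20orf194 to *HSF1* (0.915) and ABHD13 to *HSP90AA1* (0.910). No gene was the closest of the same member in both tables.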

How the data were processed

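The 18 libraries of PANC-1 RNA, 3 in each of 6 groups, were grouped by the sample labels. Per the labels and the study's methods, poly(A) RNA was prepared with a directional kit, and the authors used TopHat against hg38, then featureCounts, and TMM in the package TCC, separately for each of 2 tables. The deposited values are this normalized signal, read counts divided by 1 factor per library, called normalized counts here. Versions, annotation, strand setting and the handling of reads with several positions are not given in the sources used here. Values were whole multiples of that of 1 read within a tolerance of 0.02, so reads were recovered. The depth of 894145 to 1873906 reads on genes leaves genes with few reads imprecise. Replicates differed beyond sampling noise in all 18 pairs (chi-square per degree of freedom 1.03 to 1.63). Each pair had 10891 to 11717 degrees of freedom, so even a small excess is detected. There were 0 columns without a sample.

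All 9 libraries of a table were fitted with limma 3.58.1 (R 4.3.3, trend) on log2 (value + 1), which understates changes of low genes, leaving out genes with a mean under 10; p-values are two-sided and adjusted by Benjamini-Hochberg over all genes tested, with 0.05 and 1.5-fold as limits. Alternatives were edgeR 4.0.16 (quasi-likelihood) and DESeq2 1.42.0 on recovered reads, a replicate block, a fit of the compared groups alone, a pseudocount of 0.5 or of 5, dropping the filter or raising it to 30, rescaling by median of ratios, the sum of *HSPA1A* and *HSPA1B*, and omission of single libraries. Scripts were tested on simulated data. The members and lists were chosen with earlier results of these data known, and the lists were written from memory. All members are reported, and of each other list the genes past both limits, at most the 3 with the largest change. Promoters are from RefSeq, GRCh38.p14. Protein sequences were not used here.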

Additional observations from a re-analysis of the deposited data

Results flagged for a closer look

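Between the siRNAs, 6 members differed by the test of that difference itself (limma, adjusted over all genes), higher with PKR siRNA 2 for *HSF1* (log2 difference 1.43), *HSPA1A* (1.11), *HSPA1B* (0.90), *DNAJB1* (0.38) and *HSPA8* (0.13), and lower for *BAG3* (-0.69), although *EIF2AK2* was lowered by both. Of all genes tested, 27.7% were higher and 29.3% lower in that comparison, so the count of members is close to that background. Between the doses of C16, 3 members differed in the same test, *HSPH1* (0.25 higher at 800 nM), *HSPB1* (-0.45) and *BAG3* (-0.43). Of all genes tested there, 5.09% were higher at 800 nM and 9.18% lower.

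Across the tables, 4 of the 10 members had at least 1 siRNA and 1 dose of C16 whose libraries all lay on opposite sides of their own controls, against 29.6% of the 9821 genes tested in both tables. These differences between siRNA and inhibitor were not tested, since the tables were normalized separately. *HSPB1* was higher with PKR siRNA 1 (0.42) and PKR siRNA 2 (0.40) and lower at 800 nM C16 (-0.57), while at 400 nM it overlapped DMSO (-0.11). *HSPA1A* was higher with PKR siRNA 2 (0.66) and lower at 400 nM (-0.94) and 800 nM (-0.84), but with PKR siRNA 1 it was lower (-0.44), on the same side as with C16. *HSPA1B* was likewise higher with PKR siRNA 2 (0.65) and lower at 400 nM (-0.48) and 800 nM (-0.42), and with PKR siRNA 1 its libraries lay below the controls (-0.25, short of the threshold). *BAG3* was lower with PKR siRNA 2 (-0.63) and higher at 400 nM (0.26), while with PKR siRNA 1 (0.06) and at 800 nM (-0.16) it overlapped its controls.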

How the results depend on the processing

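Of 60 values, 1 for each member in each of 6 comparisons, 32 passed the threshold, and 26 of these kept their direction and their side of it in every alternative run. None of the 32 changed direction, and 6 lost the threshold in some alternative, all named in the report as lost when 1 library was left out. Of these, *HSP90AA1* with PKR siRNA 1 was also lost with no filter (adjusted p = 0.0733) and with DESeq2 (0.0726), *HSP90AB1* with PKR siRNA 2 with no filter (0.0631) and edgeR (0.0578), and with DESeq2 *HSPA1B* at 400 nM (0.0761) and 800 nM (0.0873), *BAG3* at 400 nM (0.154) and *HSPH1* between the doses (0.0694). Median-of-ratios rescaling moved no member's log2 fold change by more than 0.0219. The count of members over 1.5-fold at 800 nM C16 ranged from 1 to 2 when a library was left out. The sum of *HSPA1A* and *HSPA1B* as 1 gene gave 2 in place of 3 members with PKR siRNA 2, and 3 in place of 4 between the siRNAs. Of all genes, a minimum mean of 30, which tests fewer genes, left 769 in place of 1248 past both limits at 400 nM, 1618 in place of 2561 at 800 nM and 313 in place of 507 between the doses, where DESeq2 called 188.

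Of the 28 values short of the threshold, 8 changed direction in some alternative, all near 0. Between the siRNAs these were *HSPH1* (0.0037 with edgeR, 0.0024 with DESeq2) and *HSPB1* (0.0049 and 0.0024), which ranged without single libraries from -0.0896 to 0.0538 and from -0.124 to 0.0698. Without single libraries *HSPH1* with PKR siRNA 1 ranged from -0.0035 to 0.140, *HSP90AA1* and *HSF1* at 800 nM from -0.0248 to 0.0508 and from -0.167 to 0.0034, and between the doses *HSPA1B* from -0.0259 to 0.189, *HSPA8* from -0.0412 to 0.0601 and *HSP90AB1* from -0.0101 to 0.0775.

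Replicate numbers gave no sign of pairing the libraries. Deviations of libraries with the same number correlated between -0.0269 and 0.0324 in the siRNA table and -0.0491 and 0.0169 in the C16 table. Deviations that are largely counting noise would also correlate weakly, so this check cannot exclude a pairing. With a replicate block, 2237 genes passed both limits with PKR siRNA 1 in place of 2235, and 1, 3, 4, 1, 1 and 0 members did in the 6 comparisons, in the order PKR siRNA 1, PKR siRNA 2, PKR siRNA 2 against PKR siRNA 1, 400 nM, 800 nM and 800 nM against 400 nM, the same counts as without it. At this depth *HSPA6* and *CRYAB*, with means under 10, could not be compared.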
